A study of Mus musculus with 18 samples.

Results

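The levels of 10 genes were followed across genotype and time: Gap43, Basp1, Marcks, Marcksl1, Cap1, Sprr1a, Csrp3, Ecel1, Gadd45a and Arg1. They are 10 of the 17198 genes in the deposited expression table. They were chosen by symbol as effectors of axon growth and of the growth cone, with earlier results of these data known. All 10 had a row, and all 10 passed the filter on low values. Sequenced RNA came from mouse neurons of the dorsal root ganglia (DRG), which carry touch, heat and pain signals to the spinal cord, after growth in culture. Wild type (WT) cultures were compared with cultures of genotype Dynlrb1(tm1a/+), called HET here, at 12, 24 and 48 h in culture. Each of the 6 groups held 3 biological replicates, 18 cultures in all. The product of Dynlrb1 is a roadblock light chain of dynein, which moves signals and organelles from the axon back to the soma. The tm1a allele is present in 1 of the 2 copies in every cell type of a HET animal, so neurons and the other cells of these cultures carry it alike. The labels name no added agent, and the strain and age of the mice are not given in the sources used here.

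A sensory neuron that is cut or plated loses its axon and starts a growth programme. Transcription factors of the injury response raise the RNA of effector genes, and their proteins act at the membrane, the actin cytoskeleton and the growth cone, the motile tip of the axon. Gap43, Basp1, Marcks and Marcksl1 encode acidic proteins that attach to the inner face of the plasma membrane, are substrates of protein kinase C, and organise actin beneath the membrane. Cap1 encodes an actin-binding protein that speeds the turnover of actin filaments. Sprr1a, Csrp3, Ecel1 and Gadd45a are classical injury-induced genes of DRG neurons: Sprr1a encodes a small proline-rich protein best known from the cornified envelope of skin, Csrp3 the muscle LIM protein, Ecel1 a membrane endopeptidase-like protein of neurons, and Gadd45a a stress-induced regulator of growth arrest and DNA repair. Arg1 encodes arginase, which makes ornithine, the precursor of polyamines, and is also abundant in some macrophages.

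Values are the authors' normalized counts unless FPKM (a level scaled by transcript length and by library total) is named. A log2 fold change is a difference of group means of log2(normalized count + 1), which understates the change of genes with low values. Tests were made with limma over all 17198 genes with Benjamini-Hochberg adjustment, and a gene passed at an adjusted p under 0.05. Sample titles number the cultures 1, 2, 5 (12 h, 24 h) or 1, 2, 3 (48 h), and values are listed in that order. Time steps within a genotype share cultures, so they are not independent of each other. Bulk RNA does not tell fewer cells of a type from less RNA per cell. Dynlrb1 itself was lower in every HET culture (2716 to 4087) than in every WT culture (5229 to 6674). Over the 3 times together the difference was -0.83 on the log2 scale (adjusted p = 2.85e-05 in limma). Markers of sensory neurons (12 of 12 measured, summed FPKM 6378 to 9616) far exceeded those of Schwann cells (479 to 684) and satellite glia (209 to 642), so the labelled cell type was present in all cultures. One library stood apart. The HET culture 3 at 48 h correlated across genes with the means of WT and HET at 24 h at r = 0.993 and 0.991, and with the other two HET cultures at 48 h at r = 0.984.

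The levels of the 10 genes spread widely, and Gap43 had the highest mean FPKM of the 10 in all 6 groups. In WT at 12 h the order by FPKM was Gap43 at 242 ± 30.4 (SD, n = 3), Basp1 at 159.9 ± 1.07, Cap1 at 137 ± 8.91, Gadd45a at 127 ± 14.0, Marcks at 29.0 ± 2.34, Marcksl1 at 16.0 ± 1.39, Ecel1 at 9.84 ± 3.98, Sprr1a at 7.89 ± 2.94, Arg1 at 0.765 ± 0.255 and Csrp3 at 0.0472 ± 0.0231. In that order the ranges of neighbours overlapped for Cap1 with Gadd45a and for Ecel1 with Sprr1a, and all other neighbours were apart. By 48 h in WT the order had become Gap43 (346 ± 34.9), Sprr1a (213 ± 169), Basp1 (192 ± 19.2), Cap1 (158 ± 4.45), Ecel1 (118 ± 79.4), Gadd45a (105 ± 14.4), Marcks (42.5 ± 6.05), Marcksl1 (30.8 ± 9.58), Csrp3 (1.22 ± 0.882) and Arg1 (0.935 ± 0.173), each FPKM with SD and n = 3. Neighbours whose ranges were apart at that time were Basp1 and Cap1, Gadd45a and Marcks, and Marcksl1 and Csrp3. In HET at 48 h Sprr1a was the fifth (32.3 ± 14.2 FPKM, SD, n = 3) and Ecel1 the seventh (28.5 ± 13.0 FPKM, SD, n = 3), and their ranges overlapped with that of Marcks (30.7 ± 5.73 FPKM, SD, n = 3) between them.

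**Figure D1:**
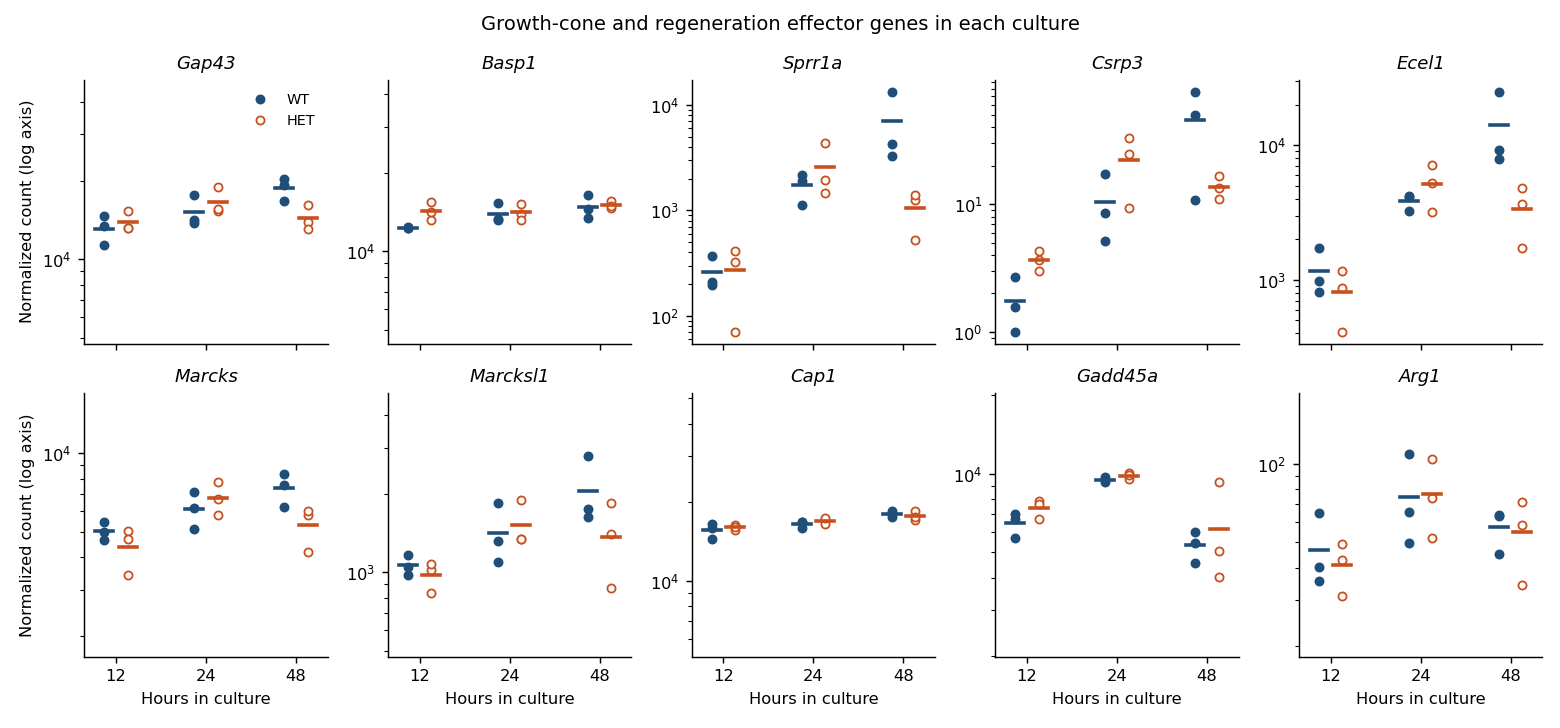
Normalized count of each of the 10 genes (log axis) against hours in culture, 1 point a culture, with WT filled and HET open and a bar at each group mean. Sprr1a, Csrp3 and Ecel1 climb steeply from 12 h, Gap43, Basp1 and Cap1 stay within a narrow band, and Gadd45a is highest at 24 h in both genotypes.

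The main change was with time in WT. Between 12 and 48 h, 8 of the 10 genes rose in WT, against 30% of all genes that passed in that direction. The 8 were Sprr1a, Csrp3, Ecel1, Marcksl1, Marcks, Gap43, Basp1 and Cap1, and for the same 8 the lowest WT culture at 48 h lay above the highest at 12 h, as it did for 34.6% of all genes. The median log2 fold change of the 10 genes was 0.53, beside 0.11 for all genes. As the 10 genes were chosen with earlier results of these data known, these shares are not an independent test. None of the 10 (0) passed in the lower direction, where 17.1% of all genes did. Without WT culture 2 at 48 h, 4 of the 8 still passed (Sprr1a, Csrp3, Ecel1 and Gap43). In the authors' deposited table Basp1 (adjusted p = 0.0575) and Cap1 (adjusted p = 0.106) were not under 0.05 for this difference. The others of the 8 were, where 28.1% of all genes were in the higher direction.

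Gap43 (ENSMUSG00000047261, chr16:42248442-42340651, minus strand, GRCm38, GENCODE M21), the growth-associated protein of the growth cone membrane, had normalized counts of 14591, 13350.4 and 11340.5 in WT at 12 h, 13758, 14163 and 17673 at 24 h, and 16646, 19150.3 and 20340.1 at 48 h. Its counts in HET were 15304, 13178 and 13192 at 12 h, 15335.5, 15568 and 18871 at 24 h, and 13860.3, 16089 and 13080.1 at 48 h. All WT cultures at 48 h were above all HET cultures at 48 h, while the genotypes overlapped at 12 and 24 h. In WT the rise from 12 to 48 h was 0.52 on the log2 scale (SE 0.13, limma adjusted p = 0.00308). In HET the same difference was 0.04 (SE 0.13, limma adjusted p = 0.839). HET at 24 h was above HET at 12 h in all cultures, at a log2 fold change of 0.25 that did not pass (limma adjusted p = 0.170).

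Basp1 (ENSMUSG00000045763, chr15:25363277-25413764, minus strand), a brain acid-soluble protein related in function to Gap43, was among the steadiest of the 10. Its normalized counts in WT were 12267, 12266 and 12408 at 12 h, 13118, 13242 and 15253 at 24 h, and 13441, 14503 and 16359 at 48 h. HET cultures gave 13206, 14140.3 and 15436 at 12 h, 13924, 13161.5 and 15182 at 24 h, and 14676, 15628 and 14915 at 48 h. The highest of the 18 values was 1.33 times the lowest. WT rose by 0.26 on the log2 scale from 12 to 48 h (SE 0.088, limma adjusted p = 0.0242), a call that was lost in the authors' other adjusted columns (0.15, limma adjusted p = 0.139), in which the median of all genes was 0.01. At 12 h the HET cultures were all above the WT cultures, at a log2 fold change of 0.21 (limma adjusted p = 0.577).

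Marcks (ENSMUSG00000069662, chr10:37133375-37138920, minus strand), the myristoylated substrate of protein kinase C that covers phosphoinositides at the membrane, had normalized counts of 4989, 5459 and 4650.4 in WT at 12 h, 5149, 7089 and 6156 at 24 h, and 7586, 8320.3 and 6247 at 48 h. The HET counts were 5043, 3406 and 4709.8 at 12 h, 7775, 5777 and 6699 at 24 h, and 5784, 6022 and 4191 at 48 h. The highest single WT value was at 48 h and the highest HET value at 24 h. The rise in WT from 12 to 48 h was 0.55 on the log2 scale (SE 0.17, limma adjusted p = 0.0147), and the rise in HET from 12 to 24 h was 0.63 (SE 0.17, limma adjusted p = 0.0171).

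Marcksl1 (ENSMUSG00000047945, chr4:129513581-129515985, plus strand), the smaller relative of Marcks, had normalized counts of 1050.5, 1161 and 978 in WT at 12 h, 1093, 1315 and 1842 at 24 h, and 1621, 2781 and 1746 at 48 h. The HET counts were 1022, 831 and 1074 at 12 h, 1344, 1343 and 1883 at 24 h, and 1398, 1838 and 873 at 48 h. WT rose by 0.91 on the log2 scale from 12 to 48 h (SE 0.25, limma adjusted p = 0.00740). HET at 24 h was above HET at 12 h in all cultures, but the log2 fold change of 0.63 did not pass (limma adjusted p = 0.0891). Cap1 (ENSMUSG00000028656, chr4:122859047-122886056, minus strand) was the flattest of the 10, with 18 normalized counts between 14509.8 and 18561. Its WT values were 15991, 16456 and 14509.8 at 12 h and 18528, 18067 and 17514 at 48 h, a rise of 0.21 on the log2 scale (SE 0.067, limma adjusted p = 0.0181). In the authors' other adjusted columns that difference was 0.10 and did not pass (limma adjusted p = 0.198).

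The upstream sequences of 3 genes are shown because they belong to a steep riser with an AP-1 match (Sprr1a), to a steep riser without one (Csrp3) and to a gene that hardly moved (Basp1). Each is the run of 250 bases before a RefSeq transcript start on GRCm38.p6, read 5′ to 3′ on the gene's own strand (minus for all 3). Capitals mark the matches to 4 motifs that were searched on both strands: the AP-1 motif TGANTCA, the cyclic AMP response element TGACGTCA, the TATA box TATAAA and the GC box GGGCGG.
Sprr1a, chr3:92485882-92486131: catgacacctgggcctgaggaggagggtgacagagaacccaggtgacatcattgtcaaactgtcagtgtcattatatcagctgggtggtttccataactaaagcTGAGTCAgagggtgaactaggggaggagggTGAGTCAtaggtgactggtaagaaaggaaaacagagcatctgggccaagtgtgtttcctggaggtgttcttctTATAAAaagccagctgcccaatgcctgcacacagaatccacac
Csrp3, chr7:48848052-48848301: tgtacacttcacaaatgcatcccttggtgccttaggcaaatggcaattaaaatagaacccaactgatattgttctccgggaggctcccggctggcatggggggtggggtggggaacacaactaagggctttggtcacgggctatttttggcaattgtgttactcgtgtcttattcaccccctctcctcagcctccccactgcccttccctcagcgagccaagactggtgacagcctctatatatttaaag
Basp1, chr15:25413765-25414014: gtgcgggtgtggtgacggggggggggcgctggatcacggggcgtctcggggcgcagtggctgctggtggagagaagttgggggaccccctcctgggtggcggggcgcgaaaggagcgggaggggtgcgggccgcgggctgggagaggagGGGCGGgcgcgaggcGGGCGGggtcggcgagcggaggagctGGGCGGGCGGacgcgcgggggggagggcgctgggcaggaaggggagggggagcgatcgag
Of 32851 such windows in the RefSeq table, 6.75% hold an AP-1 match, 1.55% a cyclic AMP response element, 12.4% a TATA box and 32.7% a GC box. The table held 8 windows for 7 of the 10 genes (2 for Csrp3), and Gap43, Marcks and Arg1 were not matched. The Sprr1a window holds 2 AP-1 matches, at -146 to -140 and -116 to -110 from the start, and a TATA box at -43 to -38. No other window of the 7 genes holds an AP-1 match, and none of the 8 holds the cyclic AMP response element. The Basp1 window is 78.8% G and C, against a median of 52.4% over all windows, and holds 4 GC boxes, the last 2 of which overlap. The Csrp3 window shown is 51.2% G and C and holds none of the 4 motifs.

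Sprr1a (ENSMUSG00000050359, chr3:92483952-92485895, minus strand) moved most. It belongs to a multigene family, and how reads shared between relatives were counted is not given in the sources used here. Its normalized counts in WT were 369.8, 209 and 197 at 12 h, 1134, 2159 and 1909 at 24 h, and 4306, 13347 and 3263 at 48 h. HET cultures held 412, 70.8 and 327 at 12 h, 4371, 1463 and 1959 at 24 h, and 1265, 1386 and 528 at 48 h. WT cultures climbed at each step with no overlap between times, whereas HET cultures were highest at 24 h and lower in all 3 cultures at 48 h. The rise in WT was 2.75 on the log2 scale from 12 to 24 h (SE 0.62, limma adjusted p = 0.0273), 1.77 from 24 to 48 h (limma adjusted p = 0.0415) and 4.52 from 12 to 48 h (limma adjusted p = 5.93e-05), or 23.0-fold. Without WT culture 2 at 48 h the last of these was 3.91, or 15.0-fold. A further fit added as terms the replicate number and the 2 directions missing from the authors' other adjusted columns. In it the step from 24 to 48 h in WT turned to -0.996 for Sprr1a and to -0.88 for Ecel1. Their step from 12 to 24 h in WT grew in that fit, to 4.90 and 3.52. In HET the same fit turned the Ecel1 step from 24 to 48 h to 0.76 (limma adjusted p = 0.0339). For Sprr1a in HET it gave 3.91 from 12 to 24 h and 4.46 from 12 to 48 h. The replicate numbers are not known to pair cultures across times, and the part of the added terms in these values was not tested. In the main fit the rise of Sprr1a in HET was 3.44 from 12 to 24 h (limma adjusted p = 0.00231) and 2.19 from 12 to 48 h (limma adjusted p = 0.0302). The HET difference from 24 to 48 h was -1.25 and did not pass (limma adjusted p = 0.280). Markers of keratinocytes, the skin cells in which Sprr1a is abundant, were low throughout (5 of 6 measured, summed FPKM 1.27 to 2.36). By marker, the highest value in any culture ran from 0.166 FPKM for Krt5 to 1.07 FPKM for Krt10. The part of such cells in the Sprr1a result was not tested.

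Ecel1 (ENSMUSG00000026247, chr1:87147655-87156521, minus strand), an endopeptidase-like protein induced in injured neurons, followed Sprr1a closely. Its normalized counts in WT were 1709.7, 819 and 986 at 12 h, 3249, 4167 and 4120.5 at 24 h, and 7959.9, 24956 and 9271 at 48 h. HET counts were 1159, 411 and 869 at 12 h, 7123, 3189.8 and 5234 at 24 h, and 3643, 4793 and 1726 at 48 h. As with Sprr1a, WT culture 2 was the highest and HET culture 3 the lowest of the cultures at 48 h, and every WT culture at 48 h was above every HET culture. WT rose by 1.78 on the log2 scale from 12 to 24 h (SE 0.46, limma adjusted p = 0.0441), 1.68 from 24 to 48 h (limma adjusted p = 0.0144) and 3.46 from 12 to 48 h (limma adjusted p = 5.00e-05). HET rose by 2.72 from 12 to 24 h (limma adjusted p = 0.00179) and by 2.06 from 12 to 48 h (limma adjusted p = 0.0155). Across the 18 cultures the log2 values of Sprr1a and Ecel1 had a Pearson r of 0.98, over cultures that share their genotype and time groups.

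Csrp3 (ENSMUSG00000030470, chr7:48830398-48848033, minus strand), the muscle LIM protein, was low in every culture. Its normalized counts in WT were 2.69, 1.003 and 1.57 at 12 h, 17.2, 5.19 and 8.49 at 24 h, and 49.9, 76.0 and 10.8 at 48 h. HET counts were 3.00, 3.63 and 4.27 at 12 h, 33.1, 24.6 and 9.34 at 24 h, and 16.6, 13.3 and 11.0 at 48 h. The WT groups at 24 and 48 h overlapped through WT culture 3 at 48 h, and no culture at 12 h reached any at 24 or 48 h. WT rose by 3.75 on the log2 scale from 12 to 48 h (SE 0.61, limma adjusted p = 0.000167) and by 1.81 from 24 to 48 h (limma adjusted p = 0.0354). HET rose by 2.18 from 12 to 24 h (limma adjusted p = 0.0198), and its difference from 12 to 48 h was 1.65 (limma adjusted p = 0.0734). Muscle markers were also low (6 of 8 measured, summed FPKM 1.96 to 5.26). Their sum was 3.36 to 5.26 in WT and 2.85 to 3.93 in HET at 48 h, and 1.96 to 3.29 in WT and 2.20 to 2.46 in HET at 12 h. By gene the list was mixed: 2 of the 6 were above 0 in WT from 12 to 48 h (1 rose and 2 fell, list median -0.18), and 3 of 6 in HET (1 rose and 0 fell, list median -0.04). Their part in the Csrp3 result was not tested.

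Gadd45a (ENSMUSG00000036390, chr6:67035096-67037457, minus strand) had a different course. Its normalized counts in WT were 7024, 6708 and 5667 at 12 h, 9746, 9435 and 9302 at 24 h, and 4554, 5458 and 6007 at 48 h. The HET values were 7854, 6716 and 7675 at 12 h, 10076, 9564 and 9911 at 24 h, and 4041, 5069 and 9281 at 48 h. Both genotypes were highest at 24 h, and HET culture 3 at 48 h had a count near the 24 h values of both genotypes. From 24 to 48 h Gadd45a fell by 0.84 on the log2 scale in WT (SE 0.20, limma adjusted p = 0.00742) and by 0.78 in HET (limma adjusted p = 0.0487). Without HET culture 3 the fall in HET was -1.12 (limma adjusted p = 3.43e-05). From 12 to 48 h the HET difference was -0.36 with all cultures (limma adjusted p = 0.221) and -0.71 without culture 3 (limma adjusted p = 0.000819).

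Arg1 (ENSMUSG00000019987, chr10:24915221-24927484, minus strand) had no difference that passed in any of the 11 comparisons. Its normalized counts in WT were 35.7, 64.8 and 40.3 at 12 h, 49.9, 65.5 and 109 at 24 h, and 45.1, 63.7 and 63.1 at 48 h. The HET values were 42.7, 31.2 and 49.1 at 12 h, 73.8, 51.8 and 104 at 24 h, and 34.3, 71.5 and 58.2 at 48 h. The widest apparent step was from 12 to 24 h in HET, a log2 fold change of 0.85 with groups that did not overlap (limma adjusted p = 0.0999). The 95% confidence interval of its genotype difference at 48 h, not adjusted for the number of genes, ran from -0.86 to 0.63 on the log2 scale. Macrophage markers (8 of 10 measured) summed to 15.8 to 75.8 FPKM, of which Cd68 alone gave 7.82 to 68.8, and Aif1 did not exceed 1.75 FPKM.

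**Figure D2:**
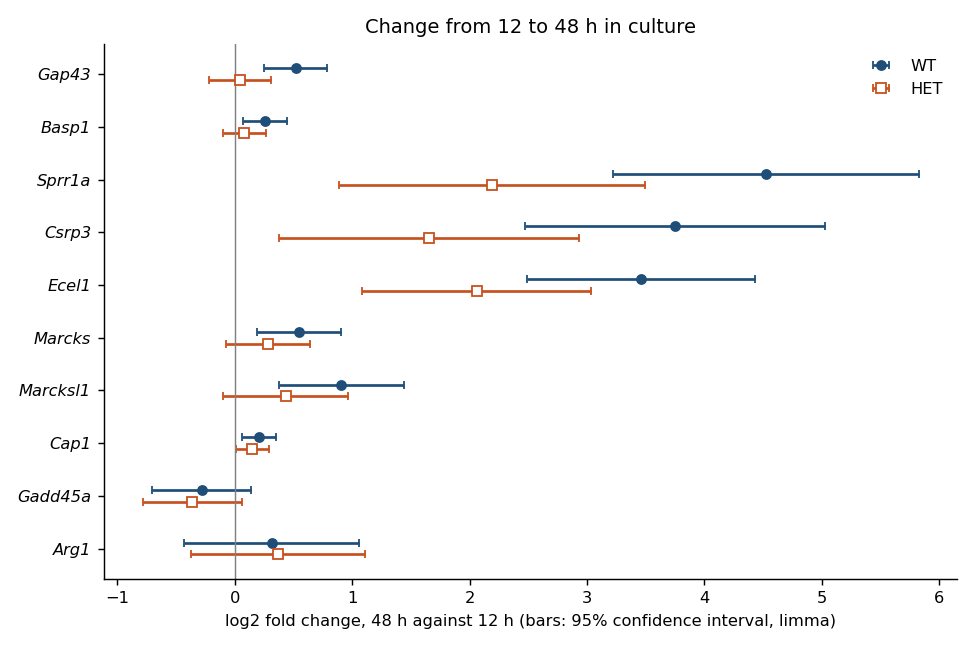
Log2 fold change from 12 to 48 h for each gene in WT (filled) and HET (open), with 95% confidence intervals that are not adjusted for the number of genes. The WT points of Sprr1a, Csrp3 and Ecel1 lie at 4.52, 3.75 and 3.46 and the HET points at 2.19, 1.65 and 2.06, while Gadd45a lies below 0 in both.

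From 12 to 24 h in WT, Sprr1a and Ecel1 rose (2 of 10, against 2.96% of all genes). All 10 log2 fold changes were above 0 (median 0.47, beside 0.05 for all genes). For 5 of the 10 genes the groups did not overlap (18% of all genes in that direction). The other 8 did not pass, with log2 fold changes from 0.08 for Cap1 to 1.94 for Csrp3. Leaving out any 1 WT culture at 12 or 24 h other than WT culture 1 at 12 h left 0 of the 10 past the threshold in that step, and leaving out WT culture 1 at 12 h left 1. From 24 to 48 h in WT, Sprr1a, Csrp3 and Ecel1 rose (3 of 10, against 17.4% of all genes) and Gadd45a fell (1 of 10, against 10.3%). That total of 4 was 2 without WT culture 2 at 24 h or WT culture 1 at 48 h, and 1 without WT culture 2 at 48 h. It was also 1 (Gadd45a) with the replicate number and the missing directions as terms, where Sprr1a and Ecel1 turned below 0. In HET from 12 to 24 h, Sprr1a, Ecel1, Csrp3 and Marcks rose (4 of 10, against 13.1% of all genes), and 9 of the 10 genes had groups that did not overlap (25.4% of all genes in that direction). The total of 4 was 2 without HET culture 2 at 12 h or HET culture 1 at 24 h. From 12 to 48 h in HET, Sprr1a and Ecel1 rose (2 of 10, against 10.6% of all genes). That total was 0 without HET culture 2 at 12 h and without HET culture 1 or 2 at 48 h, and 4 without HET culture 3 at 48 h, when Marcksl1 (0.72, limma adjusted p = 0.0310) and Gadd45a also passed. From 24 to 48 h in HET the 1 gene that passed was Gadd45a, which fell (1.08% of all genes passed in that direction). That call was lost without any 1 of the 6 cultures except HET culture 3 at 48 h. Between 12 and 48 h the summed FPKM of satellite glia markers went from 438 to 602 in WT at 12 h to 220 to 239.5 at 48 h, and that of fibroblast markers from 39.9 to 88.2 to 107 to 154. By gene, 1 of 6 satellite glia markers rose and 3 fell in WT, and 0 rose and 2 fell in HET. Of 6 fibroblast markers 4 rose in WT and 3 in HET, and 0 fell in either. The macrophage sum in WT went from 15.8 to 25.0 at 12 h to 37.9 to 75.8 at 48 h, while 1 of 8 rose and 3 fell (1 and 1 in HET). Of 12 sensory neuron markers 3 rose and 6 fell in WT, and 1 rose and 4 fell in HET. Of all genes, 30% rose and 17.1% fell in WT, and 10.6% and 3.62% in HET. Neutrophil markers summed to 6.20 to 225 FPKM in WT at 12 h and 3.91 to 5.13 at 48 h, and 4 of 6 fell (list median -3.67). In HET 3 of 6 fell (list median -3.14). Of 4 endothelial markers 2 fell in WT (list median -0.67) and 0 in HET (list median -0.32). The part of these cells in the changes with time was not tested.

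Between genotypes none of the 10 (0) passed at 12 or 24 h. At 12 h none (0) passed (0.00581% of all genes passed), and the log2 fold changes ran from -0.58 for Ecel1 to 0.79 for Csrp3. Csrp3 and Basp1 were higher in all HET than in all WT cultures at 12 h, 2 of 10 beside 7.07% of all genes. Basp1 was also the 1 of the 10 with an unadjusted limma p under 0.05 at 12 h, as 8.41% of all genes had. At 24 h none (0) passed either (0.00581% of all genes passed), and none (0) had an unadjusted limma p under 0.05 (1.15% of all genes had). All 10 log2 fold changes at 24 h were above 0, from 0.02 for Basp1 to 1.02 for Csrp3. Their median was 0.12, beside 0.009 for all genes. The groups overlapped in every case (5.6% of all genes had groups that did not overlap). The 10 genes were read from the same cultures, so their directions are not independent of each other.

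At 48 h Sprr1a, Ecel1, Csrp3, Gap43, Marcks and Marcksl1 had lower means in HET than in WT. The HET mean of Sprr1a was 15.2% of the WT mean, that of Ecel1 24.1%, Csrp3 29.9%, Marcksl1 66.8%, Marcks 72.2% and Gap43 76.7%. Without WT culture 2 in the WT mean, Sprr1a was 28.0%, Ecel1 39.3% and Csrp3 45.0%. The HET means of Basp1 and Cap1 were 102% and 98.5% of WT, and those of Gadd45a and Arg1 115% and 95.4%. Sprr1a, Ecel1, Gap43 and Marcks were lower in all 3 HET than in all 3 WT cultures, 4 of 10 beside 14.4% of all genes. Without a replicate term none of the 10 (0) passed, as none of the 17198 genes did (0% of all genes), and 6 of the 10 had an unadjusted limma p under 0.05, as did 22% of all genes. The genes that did not pass include Dynlrb1 itself, at -0.84 on the log2 scale. Its counts at 48 h were 3243 to 3482 in HET and 5677 to 6372 in WT.

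The labels state no pairing of cultures. From correlations in these same data, the replicate numbers were taken to pair WT and HET cultures at 48 h. A fit with the number as a block also held blocks at 12 and 24 h, where the numbers were not taken as pairs. Its estimate of the spread, with 6 residual degrees of freedom, came from all 3 times. This fit called 4 of the 10 lower in HET at 48 h, against 7.29% of all genes. These were Sprr1a at -2.55 on the log2 scale (SE 0.62, limma adjusted p = 0.0532, with the replicate block 0.00524), Ecel1 at -1.98 (SE 0.46, limma adjusted p = 0.0516, with the block 0.00187), Gap43 at -0.38 (SE 0.13, limma adjusted p = 0.0960, with the block 0.0139) and Marcksl1 at -0.60 (SE 0.25, limma adjusted p = 0.176, with the block 0.0200). Marcks at -0.48 (limma adjusted p = 0.119, with the block 0.0653) and Csrp3 at -1.31 (limma adjusted p = 0.218, with the block 0.121) passed in neither fit. Basp1 at 0.03, Cap1 at -0.02, Gadd45a at 0.12 and Arg1 at -0.11 had confidence intervals that spanned 0. In the authors' deposited table, Sprr1a (-2.72, adjusted p = 0.000304) and Ecel1 (-2.05, adjusted p = 0.000379) were the 2 of the 10 with an adjusted p under 0.05 at 48 h, where 3.27% of all genes had one in the lower direction.

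Single cultures moved these differences. Without WT culture 2, which had the highest Sprr1a and Ecel1 counts, the log2 fold change of Sprr1a was -1.94 (limma adjusted p = 0.395) and that of Ecel1 -1.46 (limma adjusted p = 0.394). Without HET culture 3, the library that stood apart, they were -2.11 and -1.55 (limma adjusted p = 0.251 for both). Gap43 was -0.36 and -0.32 in the same 2 fits. Marcksl1 ran from -0.85 without HET culture 2 to -0.31 without HET culture 3, and Csrp3 from -2.11 without WT culture 3 to -0.76 without WT culture 2. With no replicate term, 3 of the 10 passed without WT culture 3 (Sprr1a, Csrp3 and Ecel1), and 2 passed without HET culture 1 or HET culture 2 (Sprr1a and Ecel1). At 48 h macrophage markers summed to 23.1 to 33.9 FPKM in HET and 37.9 to 75.8 in WT. Cd68 gives most of that sum and was the 1 of the 8 with groups that did not overlap, while 3 of the 8 were above 0 in HET against WT (list median -0.16). Sensory neuron markers summed to 7404 to 7952 FPKM in HET and 6621 to 7380.2 in WT, neutrophil markers to 5.80 to 66.6 in HET and 3.91 to 5.13 in WT, and keratinocyte markers to 1.39 to 1.58 in HET and 1.74 to 1.82 in WT. None of these 4 summed ranges overlapped between genotypes, while those of Schwann cell, satellite glia, fibroblast, endothelial and muscle markers did. By gene, 2 of 12 sensory neuron markers were higher in all HET than in all WT cultures and 2 were lower. For neutrophil markers 1 of 6 was higher and 0 lower, and for keratinocyte markers 0 of 5 higher and 2 lower. Of all genes, 24% had groups that did not overlap at 48 h. The part of these cells in the result was not tested.

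**Figure D3:**
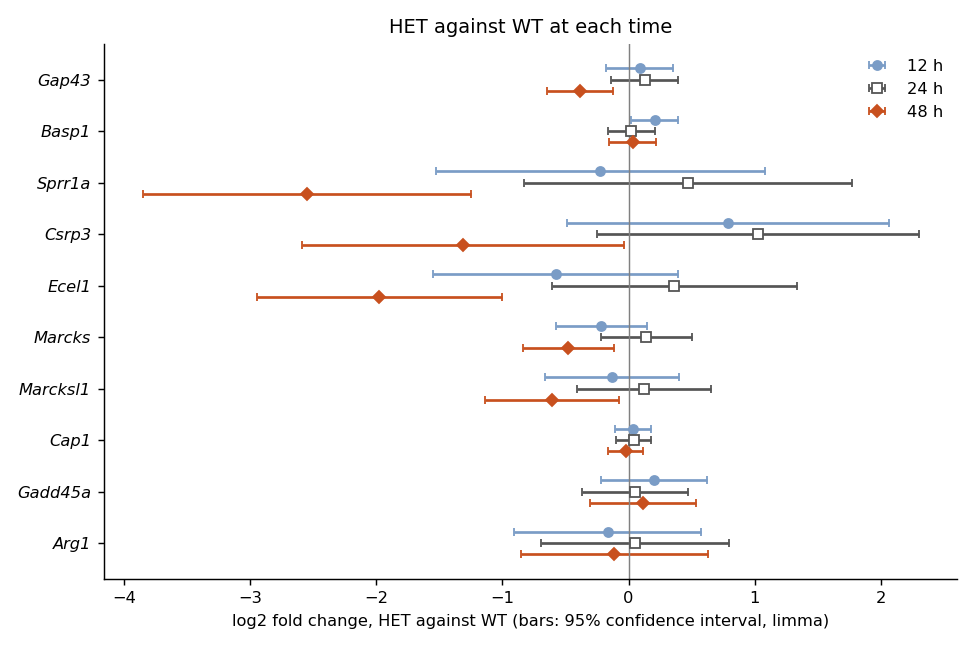
Log2 fold change of HET against WT at 12 h (circles), 24 h (squares) and 48 h (diamonds) for each gene, with 95% confidence intervals that are not adjusted for the number of genes. The intervals at 48 h lie below 0 for Gap43, Sprr1a, Csrp3, Ecel1, Marcks and Marcksl1, and Basp1 and Cap1 sit near 0 at all times except Basp1 at 12 h.

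**Figure D4:**
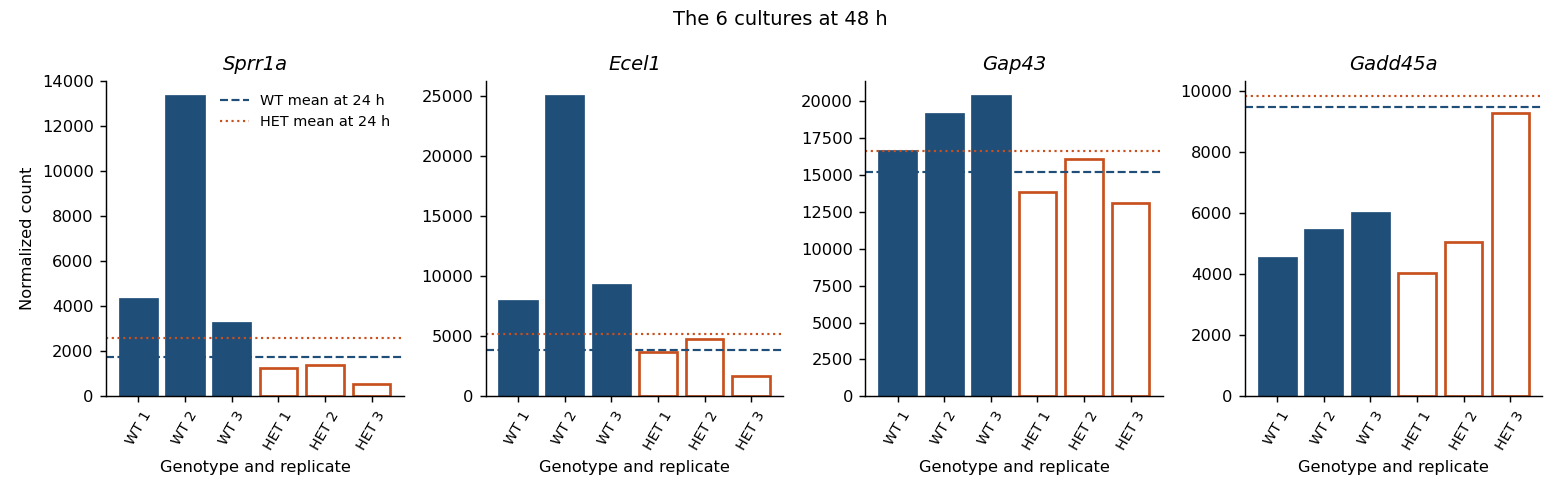
Normalized counts of Sprr1a, Ecel1, Gap43 and Gadd45a in the 6 cultures at 48 h (bars from 0, WT filled, HET open, numbered by replicate), with lines at the WT and HET means at 24 h. WT culture 2 is the highest for Sprr1a and Ecel1, and HET culture 3 is the lowest for Sprr1a, Ecel1 and Gap43 and the highest for Gadd45a.

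Whether the genotypes differed in the change from 12 to 48 h was tested with the interaction of genotype and time. None of the 10 (0) passed, nor did any gene of the table (0% of all genes), with the replicate block or without it. Among the 10, 4 had an unadjusted limma p under 0.05, beside 8.92% of all genes: Gap43 (-0.47, SE 0.18), Sprr1a (-2.33, SE 0.87), Csrp3 (-2.10, SE 0.86) and Ecel1 (-1.40, SE 0.65). Their limma adjusted p ran from 0.548 to 0.555. The rise of these genes in WT and its smaller size in HET in the main fit were therefore not shown to differ at this threshold. With the replicate number within a genotype and the missing directions as terms, the order turned for Sprr1a (3.91 in WT, 4.46 in HET) and Ecel1 (2.64 and 3.98). It was kept for Csrp3 (3.90 and 2.41) and Gap43 (0.32 and 0.24). The interaction with the missing directions and the replicate number within a time stayed below 0 (-2.36 for Sprr1a, -1.44 for Ecel1). Averaged over the 3 times, none of the 10 (0) passed the genotype comparison (0.0174% of all genes passed), and 2 (Sprr1a and Ecel1) had an unadjusted limma p under 0.05, beside 13.5% of all genes. The lowest p was that of Ecel1 at -0.73 (limma adjusted p = 0.313).

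Genes around the 10 were read from 4 lists: 40 growth cone and cytoskeleton genes, 35 other regeneration-associated genes, 11 measured close relatives of the 10 (such as Csrp1 for Csrp3 and Ece2 for Ecel1) and 16 measured genes of arginine and polyamine metabolism. Some genes stand in 2 lists, and the lists were chosen with earlier results of these data known. From 12 to 48 h in WT, 13 of the 40 growth cone genes rose and 9 fell, at a list median of -0.02, where 30% of all genes rose and 17.1% fell. Ncam1, a neural cell adhesion molecule, rose by 1.08 (limma adjusted p = 0.000221), while Gpm6a and Gpm6b, membrane glycoproteins of neurons and glia, fell by 1.05 (limma adjusted p = 0.0133) and 0.84 (limma adjusted p = 0.0367). Of the other regeneration-associated genes 17 of 35 rose and 5 fell, at a median of 0.31, beside 0.11 for all genes. Among them Sdc1, a heparan sulfate proteoglycan, rose by 3.61 (limma adjusted p = 3.29e-05), Nts, which encodes the neuropeptide neurotensin, by 2.75 (limma adjusted p = 2.23e-05) and Anxa1, a phospholipid-binding annexin, by 2.34 (limma adjusted p = 0.000184).

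The relatives did not move as a block: 3 of 11 rose and 3 fell, beside the same 30% and 17.1% of all genes. Csrp1, a LIM protein like Csrp3 but widely expressed, rose by 0.89 (limma adjusted p = 0.000136). Mme and Ece2, metallopeptidases of the same family as Ecel1, fell by 0.78 (limma adjusted p = 0.00572) and 0.61 (limma adjusted p = 0.000682), opposite in direction to Ecel1. In the arginine and polyamine list 2 of 16 rose and 3 fell. The 3 were the nitric oxide synthases Nos2 (-1.42, limma adjusted p = 0.0422) and Nos1 (-1.20, limma adjusted p = 0.000456) and the polyamine acetylase Sat1 (-0.83, limma adjusted p = 0.00872).

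In HET from 12 to 48 h, 4 of 40 growth cone genes rose and 3 fell, 9 of 35 other regeneration-associated genes rose and 0 fell, 0 of 11 relatives rose and 1 fell, and 0 of 16 polyamine genes rose and 1 fell, where 10.6% of all genes rose and 3.62% fell. Ncam1 (0.65, limma adjusted p = 0.0300) and Twf2, an actin monomer-binding protein (0.49, limma adjusted p = 0.0350), rose. Sdc1 (1.88, limma adjusted p = 0.0171), Nts (1.53, limma adjusted p = 0.0121) and Anxa1 (1.43, limma adjusted p = 0.0256) rose in HET as well. Ece2 fell by 0.40 (limma adjusted p = 0.0367), and Oaz1, the antizyme that restrains polyamine synthesis, fell by 0.56 (limma adjusted p = 0.0221). Between genotypes at 48 h no gene of the 4 lists (0) passed without the block. With it, 14 of the 35 other regeneration-associated genes were lower in HET and 0 higher, and 5 of the 40 growth cone genes were lower and 3 higher, while 7.29% of all genes were called lower and 5.04% higher. For Sdc1 the log2 fold change was -1.90 (limma adjusted p = 0.0516, with the block 0.00103) and for Nts -0.999 (limma adjusted p = 0.0651, with the block 0.00143). Csrp1 was -0.59 (limma adjusted p = 0.0522, with the block 0.00563).

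**Figure D5:**
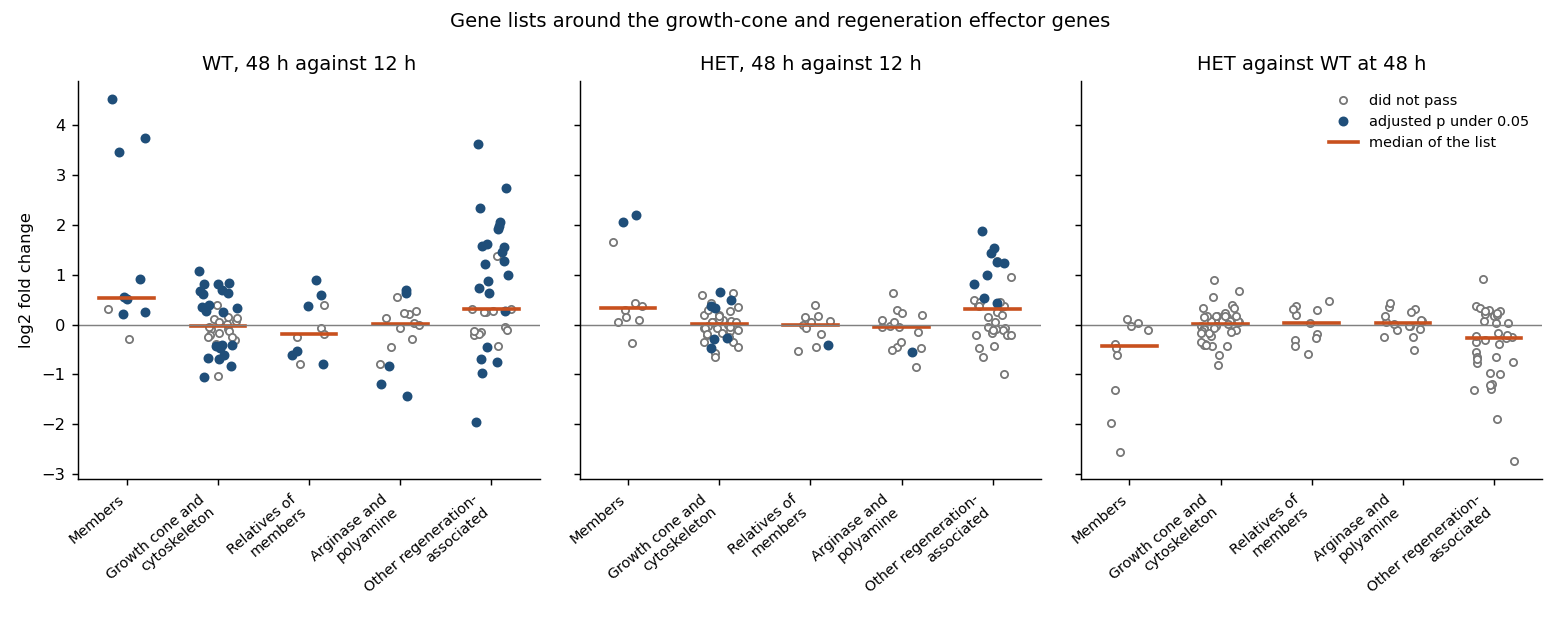
Log2 fold changes of the 10 genes and of the 4 lists around them, 1 point a gene, in WT from 12 to 48 h, in HET from 12 to 48 h and in HET against WT at 48 h, with filled points for genes that passed without the block and a line at each list's median. The growth cone list lies on both sides of 0 in all 3 panels, and its median in WT is -0.02 beside 0.53 for the 10 genes.

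For each of the 10, the genes whose log2 profile over the 18 cultures was most like it were sought among at least 12476 genes with a mean normalized count of 100 or more. Sprr1a was most like Dnmt1 (Pearson r = 0.99), a DNA methyltransferase, and Pmaip1 (0.98), a pro-apoptotic gene of the BCL-2 family. Ecel1 was most like Pcolce2 and Itga7 (both 0.99), and Csrp3 like Mettl21a (0.94) and Btbd19 (0.93). Gadd45a was most like Rcc1 (0.99) and Atf3 (0.98), the latter an injury-induced transcription factor. Gap43 was most like Cmtr2 (0.93) and Pla2g12a (0.91), Basp1 like Xrcc1 (0.92) and Syt5 (0.90), and Marcks like Cd63 (0.95) and Sdc3 (0.94). Marcksl1 was most like Lpcat2 and Baalc (both 0.95), Cap1 like Tubb4b (0.95) and Klhl25 (0.94), and Arg1 like Nck2 (0.87) and Ypel1 (0.86). All these profiles share the same 18 libraries and 6 groups. The spread within groups also differed between the 10: the median SD of log2 values within a group was 0.04 for Cap1 and 0.11 for Basp1, and 0.79 for Sprr1a, 0.67 for Ecel1 and 0.61 for Csrp3.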

How the data were processed

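RNA from 18 cultures was measured, 3 for each genotype and time. The authors deposited 1 table of 17198 genes, 16529 with an Ensembl ID. CASAVA 1.8.2, edgeR and build mm10 appear in the submitters' processing notes; the aligner, counter and annotation are not given in the sources used here. The file headers name the main columns normalized counts. Their totals ran from 41509705 to 41509874, and none (0) of the 309564 values was 0 or within 1e-06 of a whole number. They were therefore treated as a signal, depth per sample is unknown and no count model was used. The authors also deposited unlabelled adjusted columns (signal, totals 39465712 to 44213485), FPKM, log2 fold changes and p-values. The log2 fold changes and p-values of the authors were read for comparison only, and 24 other per-sample columns were not used. On the log2 scale the adjusted columns span 15 of the 17 dimensions possible among samples, so 2 directions are missing from them. How these were removed is not given in the sources used here. Whether the normalized counts lack them was not examined.

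The test was limma 3.58.1 in R 4.3.3 on log2(normalized count + 1), with a minimum mean of 1 (0 genes removed), 1 coefficient per group over all 18 samples (12 residual and 4.97 prior degrees of freedom), a mean-variance trend and Benjamini-Hochberg adjustment over 17198 genes in each of 11 comparisons. Should the normalized counts lack the 2 directions missing from the adjusted columns, 12 residual degrees of freedom (6 with the replicate block) could be too many. The limma p-values would then be too small, and this was not tested. Code was tested on simulated data. All 10 genes and Dynlrb1 were named, and from each list up to 3 genes that passed with the largest log2 fold change from 12 to 48 h in WT and HET; 1 gene that this rule names is not reported here. The 10 genes and the lists were chosen with earlier results of these data known.

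Replicate numbers come from the sample titles. Deviations of same-numbered WT and HET cultures from their group means correlated across genes at 0.32, 0.21 and 0.46 at 48 h, so numbers were taken to pair those groups. At 12 h (0.19, 0.03 and 0.16) and 24 h (0.11, -0.21 and 0.26) they were not. Sequences are from RefSeq (GRCm38.p6), gene positions from GENCODE M21, joined by Ensembl ID or symbol. Tried as alternatives were the replicate block, this block with both missing directions, the adjusted columns, quantile normalization, a pseudocount of 0.1, a minimum mean of 5, the compared groups alone and leaving out each culture.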

Additional observations from a re-analysis of the deposited data

How the results depend on the processing

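The number of the 10 genes past the threshold depended on the replicate term. With the replicate block it was 4 in place of 0 for genotype at 48 h. For genotype averaged over times it was 1 in place of 0 (Ecel1). It was 4 in place of 2 for WT 24 h against 12 h and 5 in place of 2 for HET 48 h against 12 h. The numbers were taken to pair cultures at 48 h between genotypes, and elsewhere cultures share only a number. For WT 48 h against 12 h the block gave 6 higher and 1 lower in place of 8 higher: Basp1 and Cap1 did not pass and Gadd45a fell (-0.42, limma adjusted p = 0.0139). With the block and the missing directions it was 0 for genotype averaged over times (Ecel1 adjusted p = 0.0654), 5 for genotype at 48 h, 4 for WT 24 h against 12 h, 1 in place of 4 for WT 48 h against 24 h, 6 for HET 48 h against 12 h and 2 in place of 1 for HET 48 h against 24 h. Quantile normalization gave 2 for genotype at 48 h and 1 for WT 24 h against 12 h, and the adjusted columns 1 for WT 24 h against 12 h. With only the compared groups it was 0 for HET 48 h against both 12 h and 24 h. Leaving out 1 culture gave 0 to 3 for genotype at 48 h, 0 to 1 for WT 24 h against 12 h, 4 to 7 for WT 48 h against 12 h, 1 to 4 for WT 48 h against 24 h, 2 to 4 for HET 24 h against 12 h, 0 to 4 for HET 48 h against 12 h and 0 to 1 for HET 48 h against 24 h. The cause was not tested, except that fewer cultures enter the last fits.

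Directions reversed in some of them. At 48 h between genotypes, Basp1 was -0.0050 with the block and missing directions and -0.014 with quantile normalization, and Cap1 was 0.0046 in the adjusted columns. With the block and missing directions, WT 48 h against 24 h was -0.015 for Gap43, -0.996 for Sprr1a and -0.88 for Ecel1. In that fit HET 48 h against 24 h was 0.76 for Ecel1, which passed (limma adjusted p = 0.0339), and the interaction was -0.049 for Arg1. In the adjusted columns HET 48 h against 12 h was -0.054 for Gap43 and -0.016 for Basp1. Leaving out 1 culture gave at 48 h between genotypes -0.032 to 0.11 for Basp1, -0.33 to 0.18 for Arg1, -0.055 to 0.0016 for Cap1 and -0.23 to 0.37 for Gadd45a, for HET 48 h against 12 h -0.041 to 0.12 for Gap43, and for the interaction -0.20 to 0.35 for Arg1 and -0.43 to 0.17 for Gadd45a. Of 978 alternative values of 64 single-gene results, 825 kept direction and side of the threshold, 73 lost and 56 gained a call, and 24 reversed. The 64 are results called under some setting or in comparisons read gene by gene. Of 57 other pairs of gene and comparison, 23 reversed under an alternative. A count model was not run, since the values are not counts.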
